A study of Mus musculus with 12 samples.

Results

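The 9 genes described here encode the CD3 chains of the T cell receptor (TCR) complex (Cd3e, Cd3d, Cd3g, and Cd247), the coreceptor CD4 (Cd4), and the kinases and adaptors that act first after the receptor is engaged (Lck, Zap70, Lat, and Lcp2). The rule that defines them uses gene symbols alone, and all 9 were found among the 11077 genes listed for Th17 versus Th0 cells and the 11056 listed for iTreg versus Th0 cells. RNA sequencing had been performed on 12 libraries from mouse CD4+ T cells, with 4 Th0, 4 Th17, and 4 iTreg libraries from 4 independent cultures. Every culture started from naive CD4+CD62L+ cells isolated from the spleens of C57BL/6 mice at 8 to 10 weeks of age, and no genetic alteration is named for any group. In all 3 groups the cells were stimulated for 3 days with plate-bound antibody to CD3 (1 µg/mL) and with antibody to CD28 (1 µg/mL). Th0 cells received this stimulation alone. Polarization toward Th17 cells added IL6 at 30 ng/ml, TGFβ1 at 5 ng/ml, and neutralizing antibodies to IL4 and IFNγ, each at 10 µg/mL. iTreg cells were given 10 ng/ml IL2 and 10 ng/ml TGFβ1 according to the labels, whereas the methods of the study give a higher dose of TGFβ1. The neutralizing antibodies and IL6 were therefore part of the Th17 condition only, and their effects cannot be told apart from each other. No source used here says whether spleens of several animals were pooled for a culture.

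The TCR binds peptide on MHC through its variable chains, which have almost no cytoplasmic part of their own. The CD3 epsilon, delta, and gamma chains and the zeta chain encoded by Cd247 carry the signal into the cell through tyrosine motifs called ITAMs. CD4 binds MHC class II and brings the Src-family kinase LCK to the receptor, where LCK phosphorylates the ITAMs. ZAP70 then docks on the phosphorylated ITAMs and phosphorylates the membrane adaptor LAT and the cytosolic adaptor SLP-76, which is encoded by Lcp2. LAT and SLP-76 assemble a complex that activates phospholipase C gamma 1 and with it calcium, Ras, and protein kinase C signalling. In these cultures CD4 was also a marker by which the starting cells were isolated, and CD3 was the target of a stimulating antibody. The values below are mRNA levels. Surface protein is not measured by these data.

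Cd3g, Cd3d, and Cd3e are neighbours on chromosome 9 of GRCm38 (the build called mm10), at chr9:44969572-44980431 on the minus strand, chr9:44981786-44987339 on the plus strand, and chr9:44998740-45009627 on the minus strand (GENCODE annotation). Cd3d and Cd3g are transcribed away from each other from starts that lie 1355 bases apart. The other members are scattered, with Cd247 at chr1:165788681-165877277 (plus strand), Zap70 at chr1:36761798-36782818 (plus), Lck at chr4:129548344-129573641 (minus), Cd4 at chr6:124864692-124888221 (minus), Lat at chr7:126363824-126369570 (minus), and Lcp2 at chr11:34046920-34092295 (plus). The 250 bases before the transcription start are shown for Lat and Lcp2, whose mRNA levels moved in opposite directions in Th17 cells, and for the divergent neighbours Cd3d and Cd3g. They are RefSeq promoters of GRCm38.p6, read on the strand of the gene, and lie at chr7:126369569-126369818 (Lat), chr11:34046678-34046927 (Lcp2), chr9:44981536-44981785 (Cd3d), and chr9:44980432-44980681 (Cd3g). Capitals mark matches, on either strand, to the core of an ETS site (AGGAAG), a SMAD site (CAGACA), a RUNX site (TGTGGT), or a STAT site (TTCNNNGAA).
Lat: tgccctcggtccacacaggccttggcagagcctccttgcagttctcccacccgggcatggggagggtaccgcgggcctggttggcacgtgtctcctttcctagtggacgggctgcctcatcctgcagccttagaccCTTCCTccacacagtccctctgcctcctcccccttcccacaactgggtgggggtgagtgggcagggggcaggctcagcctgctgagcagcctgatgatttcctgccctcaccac
Lcp2: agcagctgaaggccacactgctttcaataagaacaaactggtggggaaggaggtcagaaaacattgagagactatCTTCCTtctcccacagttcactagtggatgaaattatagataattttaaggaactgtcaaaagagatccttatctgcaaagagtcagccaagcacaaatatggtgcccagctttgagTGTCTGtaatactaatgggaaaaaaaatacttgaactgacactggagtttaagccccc
Cd3d: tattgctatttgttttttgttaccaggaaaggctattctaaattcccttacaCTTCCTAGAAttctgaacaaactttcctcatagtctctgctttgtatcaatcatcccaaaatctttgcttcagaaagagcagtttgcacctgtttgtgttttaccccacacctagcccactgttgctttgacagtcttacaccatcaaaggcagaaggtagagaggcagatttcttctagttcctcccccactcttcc
Cd3g: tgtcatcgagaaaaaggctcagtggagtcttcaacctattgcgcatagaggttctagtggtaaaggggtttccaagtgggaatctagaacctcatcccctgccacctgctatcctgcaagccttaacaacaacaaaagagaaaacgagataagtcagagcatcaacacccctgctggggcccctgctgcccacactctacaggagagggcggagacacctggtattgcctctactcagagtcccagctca
RefSeq promoters were matched for 8 of the 9 members, in 11 windows because Zap70 and Lck have several starts. The window of Lat holds an ETS match 114 bases before the start. In Lcp2 an ETS match lies 175 bases and a SMAD match 58 bases before the start. The capitals in Cd3d hold an ETS match and a STAT match that overlap, and the window of Cd3g holds no match to any of the 4 motifs. Across the 11 windows the ETS core was present in 9, where 29.5% of all 32851 promoter windows of this length hold it. The RUNX core was present in 2 windows (4614 of the 32851), the SMAD core in 1 (17.1% of all), and the STAT core in 1 (7.02% of all). These matches describe the letters of the windows only.

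Expression is given as FPKM, the number of fragments scaled to gene length and library size, so that levels can be compared between genes. The columns of each library begin with M22, M29, M42, or M43, the same 4 beginnings recur in every group, and values per library are given below in this order. The sources used here do not state what these beginnings stand for, and they are not the experiment numbers of the labels. Depth relative to the median library of a table ranged from 0.843 to 1.05 in Th0 and 0.918 to 1.08 in Th17 libraries, and from 0.825 to 1.03 in Th0 and 0.974 to 1.19 in iTreg libraries in the other table. Libraries with the same beginning deviated from their group means together (correlations across genes of 0.450 to 0.784 in the Th17 table and 0.662 to 0.769 in the iTreg table). With different beginnings these were -0.590 to 0.434 (median -0.318) and -0.576 to 0.248 (median -0.344). Deviations were taken from means of 4 libraries, which by itself pulls correlations between different beginnings toward negative values. The labels were checked with marker genes. Of 5 Th17 markers 4 rose in Th17 cells, and all 4 Treg markers rose in iTreg cells, with Foxp3, the defining Treg transcription factor, at 4.85 ± 2.55 FPKM in Th0 and 75.2 ± 13.5 FPKM in iTreg libraries (SD, n = 4). All 6 T cell identity markers were listed, and Cd8b1 of the CD8 T cells was at 2.52 to 6.60 FPKM in Th0, 3.22 to 5.89 FPKM in Th17, and 2.19 to 5.52 FPKM in iTreg libraries. Of 8 B cell markers only Cd79a was listed (0.646 to 3.84 FPKM in Th0 and 0.586 to 2.49 FPKM in Th17 libraries). The constant chains of the TCR itself were not listed under the symbols searched for, so their levels are not known here.

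**Figure D1:**
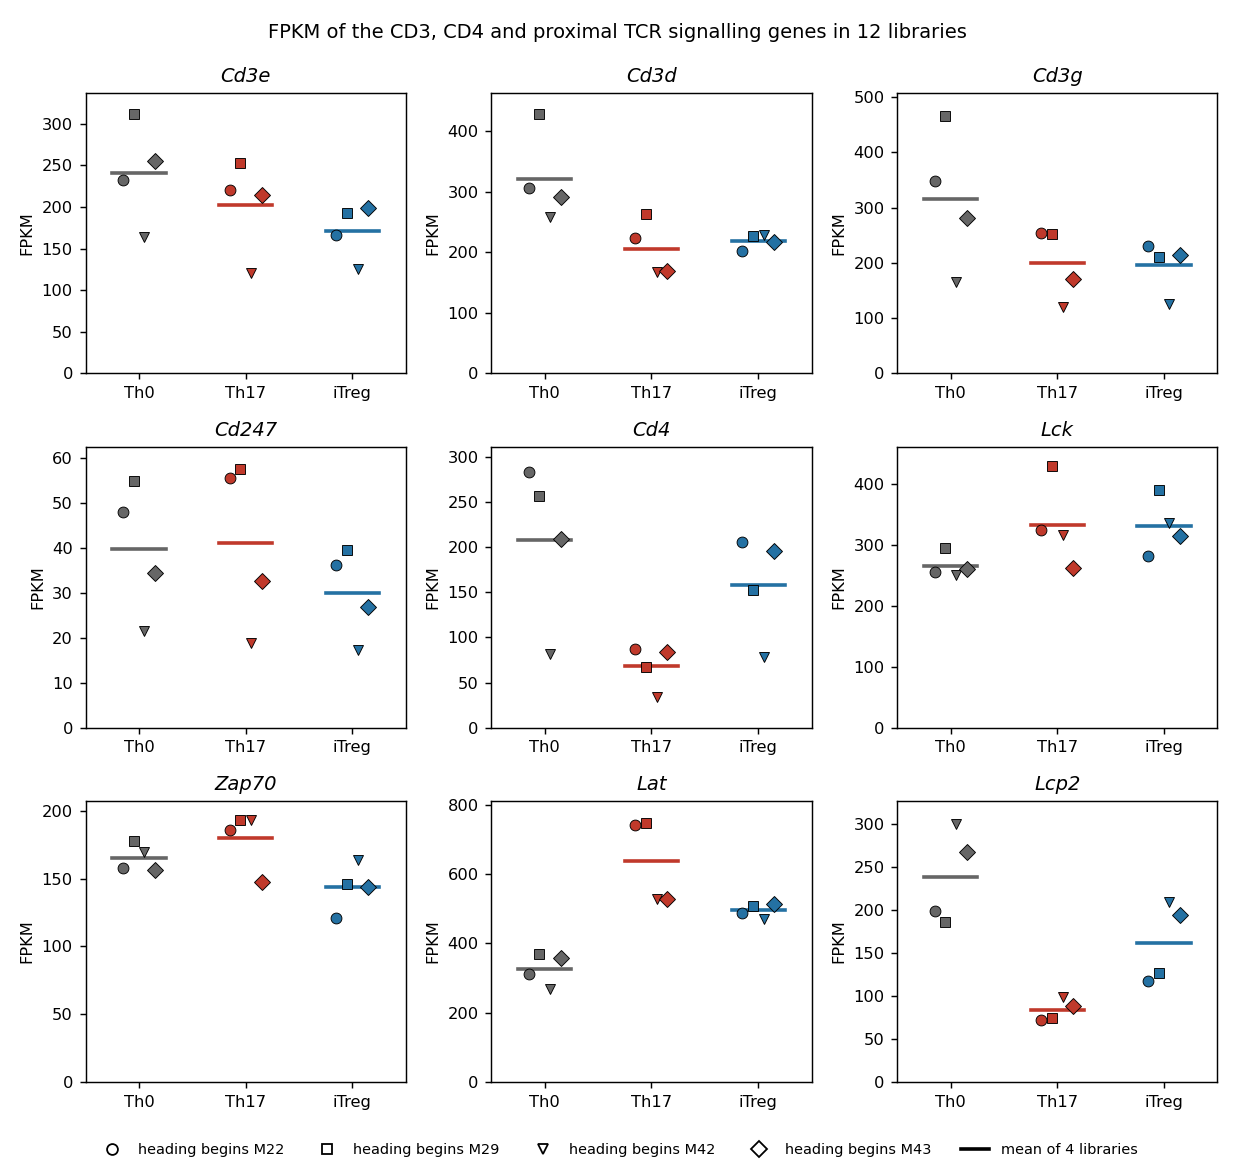
FPKM (vertical axes, linear, from 0) of the 9 genes in Th0 (grey), Th17 (red), and iTreg (blue) libraries, with 1 symbol per library shaped by the beginning of its column heading and a bar at the mean of 4 libraries. Th0 values are those of the Th17 table. All 4 Th17 libraries lie above the Th0 libraries for Lat and below them for Lcp2, and the M42 libraries (triangles) are lowest for most of the other genes.

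In Th17 cells, Lat mRNA was raised and Lcp2 and Cd4 mRNA were lowered compared to Th0 cells, while the CD3 chains, Lck, and Zap70 did not pass the threshold. These 3 genes made up 33.3% of the 9 members, where 19.3% of the 10269 genes tested were differentially expressed (DE, adjusted p under 0.05 in limma with Benjamini-Hochberg adjustment over all genes tested). Of the members 1 was up-regulated (10.6% of all genes) and 2 were down-regulated (8.69% of all genes). In iTreg cells only Lat was DE, and it was up-regulated, which is 11.1% of the members beside 16.6% of the 10208 genes tested (8.36% up-regulated and 8.21% down-regulated). With 9 members, shares of 3 and of 1 are near these backgrounds. The median log2 fold change of the members was -0.27 in Th17 and -0.36 in iTreg cells, and that of all genes was -0.00071 and 0.011. Both comparisons use the same Th0 libraries, so they are not independent of each other.

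The difference between libraries of a group was large for most members, and much of it was shared by libraries with the same heading beginning. The M42 library was the lowest of its group for 7 of the 9 members in Th0, 6 in Th17, and 5 in iTreg cells, and it was the highest for Lcp2 in all 3 groups. The M29 library was the highest for 7 members in Th0 and 6 in Th17 cells, but for only 2 (Cd247 and Lck) in iTreg cells, where the M42 library was the highest for 3. When libraries with the same beginning were compared with each other, 7 of the 9 members moved in the same direction in all 4 beginnings in Th17 cells (all but Cd247 and Zap70), and all 9 did so in iTreg cells, where 55.3% and 56.6% of all genes did. With the beginning added as a term of the limma fit, which was chosen after the data were seen, 5 members were DE in Th17 cells (Cd3d and Cd3g in addition) where 37.8% of all genes were, and 7 in iTreg cells (all but Cd4 and Zap70) where 40.9% of all genes were. In iTreg cells the calls for the CD3 chains, Lck, and Lcp2 therefore depended on how the spread between the beginnings was treated. The same held for Cd3d and Cd3g in Th17 cells. Values of both fits are given below.

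**Figure D2:**
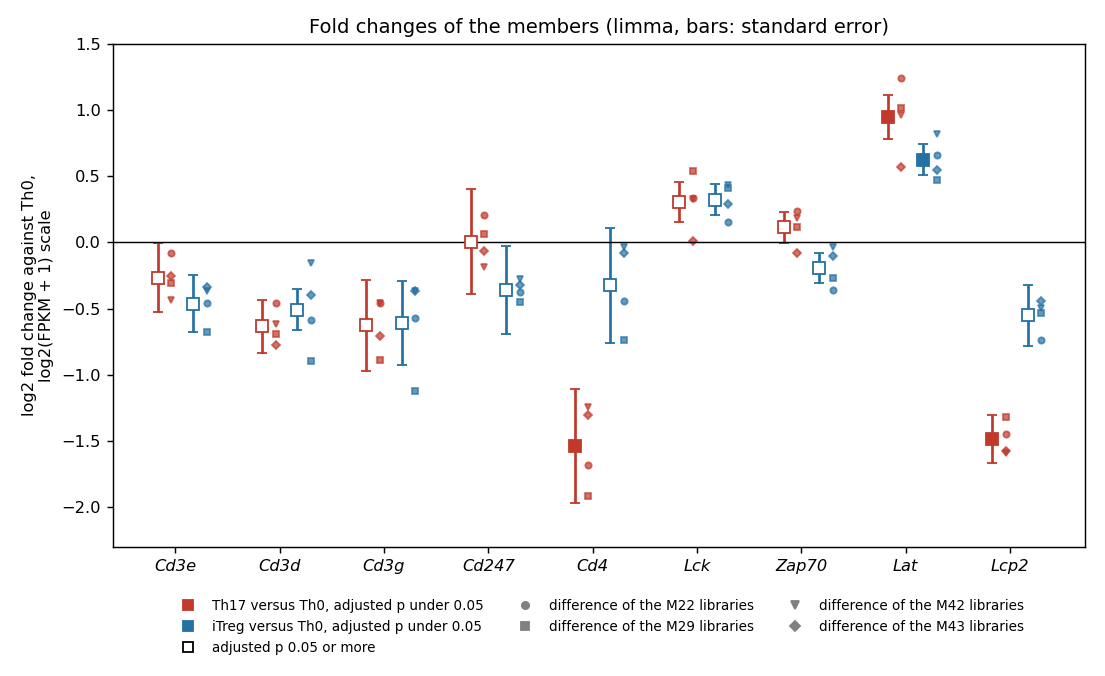
Log2 fold change against Th0 (vertical axis, log2(FPKM + 1) scale) of the 9 genes in Th17 (red) and iTreg (blue) cells. Squares with bars are limma estimates with their standard error, filled where the adjusted p was under 0.05, and small symbols are the differences between libraries with the same heading beginning. Lat is filled in both comparisons and Lcp2 and Cd4 in Th17 cells alone, where their estimates are -1.48 and -1.54.

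The epsilon, delta, and gamma chains of CD3 were lower on average in both polarized cell types, and none of them passed the threshold in the unpaired fit. Cd3e, which pairs with either the delta or the gamma chain, was at 232, 312, 164, and 256 FPKM in the Th0 libraries and at 220, 252, 121, and 214 FPKM in the Th17 libraries. The 2 groups overlapped over most of their range. The log2 fold change was -0.27 with a standard error of 0.26 (limma, adjusted p = 0.528, and 0.0547 with the beginning as a term). The differences within a beginning ran from -0.43 to -0.08. In iTreg libraries Cd3e was at 166, 192, 125, and 199 FPKM, beside 229, 309, 162, and 253 FPKM for Th0 in the same table. All iTreg values but the M42 value lay between the lowest and the highest Th0 value. On the log2 scale the fold change was -0.46 ± 0.22 (SE, limma, adjusted p = 0.194), with -0.68 to -0.34 within beginnings and an adjusted p of 0.00458 with the beginning as a term.

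Cd3d, the delta chain, showed the clearest separation among the CD3 chains. It was at 307, 429, 258, and 291 FPKM in Th0 and at 223, 264, 168, and 170 FPKM in Th17 libraries, so that only the highest Th17 library, M29, reached above the lowest Th0 library, M42. The mean was 35.7% lower in Th17 cells and the log2 fold change was -0.63 ± 0.20 (SE, limma, adjusted p = 0.0579). Without the Th17 library M29 the adjusted p was 0.0385, with libraries scaled to equal medians 0.0345, and with the beginning as a term 0.00215. Leaving out any other library kept the adjusted p of limma above the threshold, with values from 0.0571 to 0.134. In iTreg libraries Cd3d was at 202, 228, 229, and 218 FPKM against 303, 425, 255, and 288 FPKM in Th0. The groups did not overlap (exact two-sided permutation test, p = 0.029, which is the lowest value possible with groups of 4), which was the case for 2 members (22.2%) and for 22.8% of all genes. The limma fold change of -0.51 ± 0.15 (SE) had an adjusted p of 0.0560, which became 0.0374 without the Th0 library M42 and 0.0164 with the beginning as a term. With any other library left out, the adjusted p of limma was 0.0540 to 0.137. The 4 iTreg libraries spanned a narrower range of Cd3d than the Th0 libraries did, with an SD of 12.5 FPKM beside 74.4 FPKM.

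Cd3g, the gamma chain, differed widely between libraries. Its values were 348, 467, 165, and 281 FPKM in Th0 and 254, 252, 120, and 172 FPKM in Th17 libraries. The M42 value of Th0 lay below 3 of the 4 Th17 values. Its log2 fold change was -0.63 ± 0.34 (SE, limma, adjusted p = 0.249), with -0.89 to -0.46 within beginnings and an adjusted p of 0.00430 with the beginning as a term. In iTreg libraries it was at 231, 211, 126, and 215 FPKM against 344, 463, 163, and 278 FPKM. Its log2 fold change was -0.61 ± 0.32 (SE, limma, adjusted p = 0.242), and the M29 libraries differed most, by -1.13, beside -0.37 for the beginning that differed least. With the beginning as a term the adjusted p was 0.0121.

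Cd247, the zeta chain, was the member with the lowest mean FPKM in every group. It was at 48.0, 54.9, 21.5, and 34.4 FPKM in Th0 and at 55.6, 57.5, 18.8, and 32.7 FPKM in Th17 libraries, with 2 beginnings higher and 2 lower. The log2 fold change of 0.0055 ± 0.40 (SE, limma, adjusted p = 0.995, and 0.970 with the beginning as a term) gives no direction. Its sign turned when libraries were left out. In iTreg libraries Cd247 was at 36.3, 39.6, 17.4, and 26.9 FPKM against 47.4, 54.4, 21.3, and 34.0 FPKM. The groups overlapped, although each iTreg library was below the Th0 library with the same beginning. On the log2 scale the fold change was -0.36 ± 0.33 (SE, limma, adjusted p = 0.535, and 0.00587 with the beginning as a term). In the GENCODE annotation 60.3% of the exonic bases of Cd247 are shared with Pou2f1 and Gm16565, and the authors counted without strand, so the level of Cd247 is uncertain. For the other 8 members this share was at most 6.32% (Lcp2).

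Cd4 was lowered in Th17 cells and had, with Lcp2, the lowest log2 fold change of the members there. It was at 283, 256, 81.3, and 209 FPKM in Th0 libraries and at 87.4, 67.1, 33.8, and 84.1 FPKM in Th17 libraries. Every Th17 library was lower than the Th0 library with the same beginning, by -1.92 to -1.24 on the log2 scale, but the Th0 library M42 lay within the range of the Th17 libraries, and the exact permutation test gave p = 0.086. The mean was 67.2% lower, and the log2 fold change was -1.54 ± 0.43 (SE, limma, adjusted p = 0.0377, and 0.000324 with the beginning as a term). Without the Th0 library M42 the fold change was -1.94 with an adjusted p of 0.00552. Leaving out any other library took the adjusted p above the threshold, with values from 0.0552 to 0.0995. In iTreg libraries Cd4 was at 206, 152, 78.3, and 196 FPKM against 280, 254, 80.3, and 207 FPKM in Th0. The groups overlapped, and the M42 and M43 libraries were nearly equal in the 2 groups. Its log2 fold change was -0.32 ± 0.44 (SE, limma, adjusted p = 0.683, and 0.0821 with the beginning as a term).

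Lck, whose product is carried by CD4, was higher on average in both polarized cell types without passing the threshold. It was at 256, 295, 251, and 260 FPKM in Th0 and at 324, 430, 316, and 262 FPKM in Th17 libraries. The M43 libraries were nearly equal, and the other Th17 libraries lay above all Th0 libraries. The log2 fold change was 0.30 ± 0.15 (SE, limma, adjusted p = 0.205, and 0.0594 with the beginning as a term). In iTreg libraries Lck was at 282, 390, 336, and 315 FPKM against 253, 293, 248, and 257 FPKM. Only the M22 library lay within the Th0 range. On the log2 scale the fold change was 0.32 ± 0.12 (SE, limma, adjusted p = 0.103), with 0.15 to 0.43 within beginnings and an adjusted p of 0.0145 with the beginning as a term.

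Zap70 had the smallest log2 fold change after Cd247 in Th17 cells and the smallest of all members in iTreg cells, and it was not DE in either. It was at 158, 178, 170, and 157 FPKM in Th0 and at 186, 194, 193, and 148 FPKM in Th17 libraries. The M43 library was the lowest of the Th17 libraries and lay below all Th0 libraries, whereas the other 3 lay above them. Its log2 fold change was 0.11 ± 0.12 (SE, limma, adjusted p = 0.544, and 0.340 with the beginning as a term). In iTreg libraries Zap70 was at 121, 146, 164, and 144 FPKM against 156, 177, 168, and 155 FPKM. Each iTreg library was lower than the Th0 library of the same beginning, by at most -0.36 on the log2 scale. The log2 fold change was -0.19 ± 0.11 (SE, limma, adjusted p = 0.290, and 0.0938 with the beginning as a term).

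Lat was DE in both comparisons. It was at 313, 369, 269, and 357 FPKM in Th0 libraries and at 743, 748, 527, and 529 FPKM in Th17 libraries. Every Th17 library exceeded every Th0 library (exact two-sided permutation test, p = 0.029), which held for 2 of the 9 members (22.2%) and 23.8% of all genes. With libraries scaled to equal medians, groups did not overlap for 4 members and 23.0% of all genes. The mean was 327 ± 45.2 FPKM in Th0 and 636 ± 126 FPKM in Th17 cells (SD, n = 4), a ratio of 1.95. On the log2 scale the fold change was 0.95 ± 0.17 (SE, limma, adjusted p = 0.00452, and 0.00161 with the beginning as a term). The rise was larger in the M22 libraries (1.25) than in the M43 libraries (0.57). In iTreg libraries Lat was at 489, 508, 471, and 515 FPKM against 309, 365, 266, and 352 FPKM. The groups did not overlap, and the ratio of means was 1.53. The log2 fold change was 0.63 ± 0.12 (SE, limma, adjusted p = 0.00733, and 0.00131 with the beginning as a term). With any library left out, Lat remained DE in both comparisons. Spns1, which lies on the same strand and ends 489 bases before the start of Lat, was at 19.1 ± 7.78 FPKM in Th0 and 44.8 ± 23.5 FPKM in Th17 cells (SD, n = 4, limma, adjusted p = 0.0998).

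Lcp2, which encodes the partner adaptor SLP-76, moved the other way. It was at 199, 186, 300, and 268 FPKM in Th0 libraries and at 72.5, 74.1, 98.9, and 88.9 FPKM in Th17 libraries. The highest Th17 library lay well below the lowest Th0 library (exact two-sided permutation test, p = 0.029). The mean was 238 ± 54.6 FPKM in Th0 and 83.6 ± 12.6 FPKM in Th17 cells (SD, n = 4), which is 64.9% lower. The log2 fold change was -1.48 ± 0.18 (SE, limma, adjusted p = 0.000628, and 7.24e-05 with the beginning as a term). The decrease was of similar size in each beginning, from -1.59 to -1.32, and Lcp2 remained DE with any library left out. In iTreg libraries Lcp2 was at 118, 127, 210, and 194 FPKM against 197, 184, 296, and 264 FPKM in Th0. The M42 and M43 libraries of iTreg cells overlapped with the lower Th0 libraries. On the log2 scale the fold change was -0.55 ± 0.23 (SE, limma, adjusted p = 0.151), with -0.74 to -0.44 within beginnings and an adjusted p of 0.00171 with the beginning as a term. Lcp2 was highest in the M42 library of each group.

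The macrophage marker Cd68 was at 4.06 ± 0.686 FPKM in Th0 and 8.91 ± 4.71 FPKM in Th17 libraries (SD, n = 4), without overlap between the groups. Its adjusted p in limma was 0.0550, and 0.0186 with the beginning as a term. It is 1 of 2 listed among 10 myeloid and dendritic cell markers, whose summed level was 3.34 to 5.03 FPKM in Th0 and 5.58 to 16.5 FPKM in Th17 libraries. The defining markers Lyz2, Csf1r, and Adgre1 were not among the genes listed for either comparison. In iTreg libraries Cd68 was at 4.65 ± 1.94 FPKM, beside 4.01 ± 0.684 FPKM in Th0 (SD, n = 4, limma, adjusted p = 0.788). The part of other cells in the lower Cd4 and Lcp2 levels of Th17 cells was not tested. Of the 6 T cell identity markers, 1 rose and 1 fell in Th17 cells (33.3%, beside 19.3% of all genes). In iTreg cells 1 rose (16.7%, beside 16.6% of all genes). With the beginning as a term 2 rose and 1 fell in Th17 cells (50.0%, beside 37.8% of all genes). With this term 2 rose and 3 fell in iTreg cells (83.3%, beside 40.9% of all genes). Bcl11b was at 26.3 ± 5.04 FPKM in Th0 and 41.8 ± 3.74 FPKM in Th17 cells (limma, adjusted p = 0.0133), and Gata3 fell from 12.2 ± 2.91 to 2.40 ± 0.674 FPKM (log2 fold change -1.96, limma, adjusted p = 0.000254). Cd2 was at 164 ± 46.6 FPKM in Th0 and 342 ± 47.7 FPKM in iTreg cells (limma, adjusted p = 0.0122). The costimulatory receptor Cd28 had a log2 fold change of -1.22 in iTreg cells (limma, adjusted p = 0.0634, and 0.000646 with the beginning as a term). For Thy1 it was 0.78 there (limma, adjusted p = 0.142, and 0.000290 with the beginning as a term). In bulk RNA, fewer cells of a type and less RNA per cell cannot be told apart.

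The order of levels within a group changed between the cell types. In Th0 cells the order of mean FPKM was Lat, Cd3d, Cd3g, Lck, Cd3e, Lcp2, Cd4, Zap70, and Cd247, running from 327 ± 45.2 to 39.7 ± 14.8 FPKM (SD, n = 4). Each of the first 8 overlapped with its neighbour in this order, and only Zap70 (166 ± 10.3 FPKM) and Cd247 were apart. In Th17 cells Lat and Lck (333 ± 70.2 FPKM) led without overlap between them, followed by the 3 CD3 chains Cd3d, Cd3e, and Cd3g and by Zap70 (180 ± 21.8 FPKM), while Lcp2 and Cd4 (68.1 ± 24.5 FPKM) ranked below Zap70, the first of them without overlap with it. In iTreg cells Lat (496 ± 19.7 FPKM), Lck (331 ± 45.2 FPKM), and Cd3d (219 ± 12.5 FPKM) were apart from each other, the members from Cd3d to Zap70 overlapped with their neighbours, and Cd247 was again lowest (30.0 ± 10.0 FPKM). Th0 means here are those of the Th17 table. By mean FPKM the members other than Cd247 were above 90.7% (Cd4 in Th17 cells) to 99.1% (Lat in Th17 cells) of listed genes, and Cd247 was above 81.7%, 82.4%, and 74.8% of listed genes in Th0, Th17, and iTreg cells.

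The FPKM of each Th0 library differ slightly between the tables, by a factor that is the same for all genes, so the tables were scaled separately, and Th17 and iTreg levels were therefore not tested against each other. The ratio of 2 members within a library does not depend on such scaling, and 6 such ratios were compared among the 3 groups (18 exact permutation tests, chosen after the values were seen). The ratio of Cd4 to Cd3e was 1.22, 0.823, 0.497, and 0.819 in Th0 libraries, 0.398, 0.266, 0.279, and 0.393 in Th17 libraries, and 1.24, 0.790, 0.625, and 0.983 in iTreg libraries. Th17 libraries lay below all Th0 and all iTreg libraries, each with p = 0.029 in the exact permutation test and 0.086 after adjustment over the 18 tests. Between iTreg and Th0 the mean ratios were 0.908 and 0.840 (exact permutation p = 0.74). The ratio of Lcp2 to Lat was 0.636, 0.505, 1.11, and 0.750 in Th0 libraries, 0.0976, 0.0991, 0.188, and 0.168 in Th17 libraries, and 0.241, 0.250, 0.446, and 0.377 in iTreg libraries. The 3 groups were separate from each other, with Th17 lowest and iTreg between (exact permutation p = 0.029 for each, 0.086 adjusted). Between Th17 and Th0 this outcome was fixed in advance, because Lat and Lcp2 each separated these groups, in opposite directions. The same held for the Th17 and iTreg values as given. For these pairs of groups the p of the ratio therefore adds no support. The ratio of Lck to Cd3e was 1.10, 0.947, 1.53, and 1.02 in Th0 libraries and 1.69, 2.03, 2.68, and 1.58 in iTreg libraries, without overlap (exact permutation p = 0.029, 0.086 adjusted), and 1.47, 1.70, 2.61, and 1.23 in Th17 libraries, which overlapped with both. No ratio of Cd3d, Cd3g, or Cd247 to Cd3e separated any groups, with exact permutation p from 0.11 to 0.80. Within beginnings, however, Cd3d to Cd3e and Cd3g to Cd3e were lower and Cd247 to Cd3e was higher in the Th17 than in the Th0 library in all 4, for example 1.02 against 1.32 for Cd3d to Cd3e in the M22 libraries. Against Th0, iTreg libraries also had a lower Cd3g to Cd3e and a higher Cd247 to Cd3e in all 4 beginnings. Cd3d to Cd3e was lower there in 3 of them, and Cd3g to Cd3e rounded to 1.01 in both M42 libraries. The permutations of these ratios do not use the beginnings. As the smallest p of this design is 0.029, no ratio passed an adjusted p of 0.05.

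**Figure D3:**
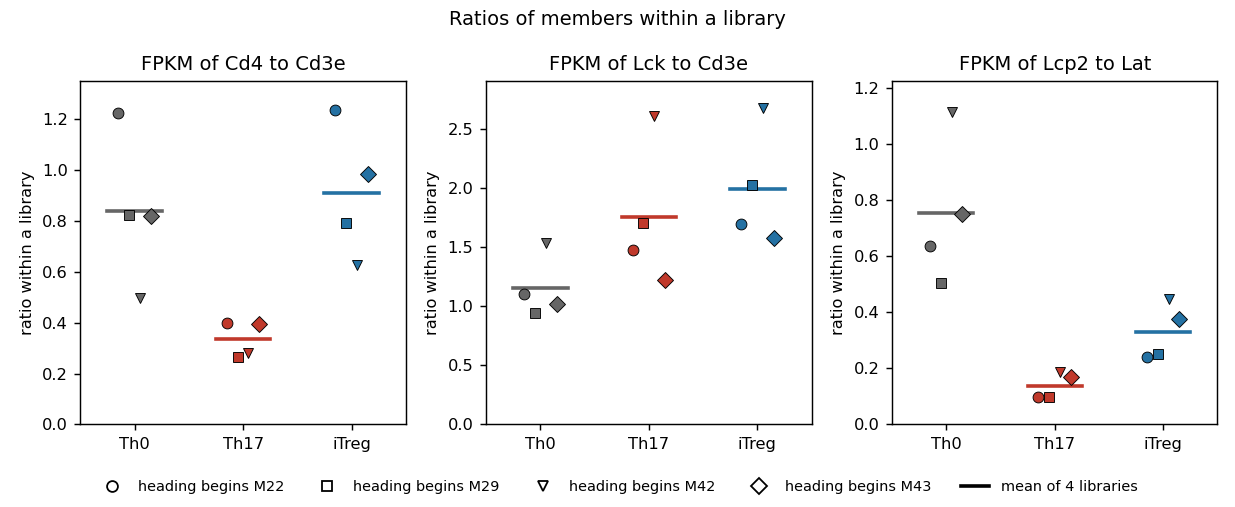
Ratio of the FPKM of 2 genes within a library (vertical axes, linear, from 0) for Cd4 to Cd3e, Lck to Cd3e, and Lcp2 to Lat in Th0, Th17, and iTreg cells, with 1 symbol per library and a bar at the mean of 4. Cd4 to Cd3e is lowest in Th17 libraries (0.266 to 0.398), and Lcp2 to Lat is separate in all 3 groups.

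Genes that act around the members were taken from 3 lists with 55 genes in all, every one of them listed and tested. In Th17 cells 6 were up-regulated, 13 down-regulated, and 36 not DE, and in iTreg cells the counts were 7, 12, and 36. The DE share was 34.5% in each comparison, beside 19.3% of all genes in Th17 and 16.6% in iTreg cells, and as the lists were chosen with results known these shares are descriptions. The median log2 fold change was -0.10 in Th17 and -0.17 in iTreg cells. With the beginning as a term 9 were up-regulated and 20 down-regulated in Th17 cells, and 10 and 25 in iTreg cells, which is 52.7% and 63.6% of the lists beside 37.8% and 40.9% of all genes. Leaving out a library gave 13 to 21 DE genes in Th17 cells and 11 to 17 in iTreg cells, with 11 without the Th0 library M22 and 12 without the iTreg library M22.

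The first list held 19 kinases, phosphatases, and adaptors that set the activity of LCK and the TCR, and 1 was up-regulated and 5 were down-regulated in Th17 cells, with a median log2 fold change of -0.39. The DE share of this list was 31.6% in Th17 and 21.1% in iTreg cells (all genes, 19.3% and 16.6%). Sla, an adaptor that promotes removal of the TCR from the surface, fell from 150 ± 27.9 FPKM in Th0 to 37.7 ± 6.85 FPKM in Th17 cells (log2 fold change -1.96, limma, adjusted p = 0.000169). The Src-family kinase Fyn fell from 125 ± 9.19 to 82.5 ± 8.42 FPKM (limma, adjusted p = 0.00554). The tyrosine phosphatase SHP-1, encoded by Ptpn6, fell from 132 ± 19.4 to 75.6 ± 8.06 FPKM (limma, adjusted p = 0.00434), and Ubash3a and Sla2 also fell. The transmembrane adaptor Sit1 rose from 7.47 ± 1.94 to 12.03 ± 1.85 FPKM (limma, adjusted p = 0.0391). In iTreg cells 1 was up-regulated and 3 were down-regulated, with a median of -0.21. Sla fell from 148 ± 27.7 to 25.9 ± 8.14 FPKM (log2 fold change -2.51, limma, adjusted p = 0.000353), Fyn from 124 ± 9.29 to 88.6 ± 5.15 FPKM (limma, adjusted p = 0.00892), and the ubiquitin ligase Cblb from 35.1 ± 6.89 to 15.6 ± 3.03 FPKM (limma, adjusted p = 0.00290), while Sit1 rose (log2 fold change 0.85, limma, adjusted p = 0.0163).

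The second list held 19 partners and effectors of the complex of LAT and SLP-76. In Th17 cells 3 were up-regulated and 4 down-regulated (36.8%, beside 19.3% of all genes), with a median of -0.092. Txk, a kinase of the Tec family, rose from 12.95 ± 3.59 to 40.5 ± 5.56 FPKM (log2 fold change 1.60, limma, adjusted p = 0.000497). Plcg1 itself rose from 59.4 ± 13.3 to 93.2 ± 9.01 FPKM (limma, adjusted p = 0.0195), and the exchange factor Vav1 rose from 43.04 ± 2.30 to 70.9 ± 5.65 FPKM (limma, adjusted p = 0.00129). Tespa1 fell most, from 40.9 ± 6.71 to 5.28 ± 1.97 FPKM (log2 fold change -2.77, limma, adjusted p = 6.43e-05), and Themis, Arhgef6, and the inhibitory kinase Map4k1 also fell. In iTreg cells 5 were up-regulated and 4 down-regulated (47.4%, beside 16.6% of all genes), with a median of -0.014. Grap2, which encodes the GADS adaptor that links LAT to SLP-76, rose from 27.6 ± 5.36 to 57.4 ± 5.43 FPKM (log2 fold change 1.04, limma, adjusted p = 0.00151), and Txk, Vav1, Sos2, and Inpp5d rose as well. Tespa1 fell from 40.5 ± 6.61 to 14.7 ± 4.83 FPKM (log2 fold change -1.44, limma, adjusted p = 0.00324), together with Nck2, Skap1, and Map4k1.

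The third list held 17 genes that act downstream of phospholipase C gamma 1. In Th17 cells 2 were up-regulated and 4 down-regulated (35.3%, beside 19.3% of all genes), with a median of 0.043. Orai1, the pore of the store-operated calcium channel, fell from 60.9 ± 8.30 to 26.3 ± 3.53 FPKM (log2 fold change -1.18, limma, adjusted p = 0.000477). Bcl10, which links protein kinase C to NF-κB, fell from 50.0 ± 1.61 to 30.5 ± 2.48 FPKM (limma, adjusted p = 0.00116), and the Ras activator Rasgrp1 and the diacylglycerol kinase Dgkz also fell. The calcium channel Itpr3 rose from 10.99 ± 3.63 to 35.3 ± 16.0 FPKM (log2 fold change 1.54, limma, adjusted p = 0.0164), and Mapk3, which encodes ERK1, rose as well. In iTreg cells 1 was up-regulated and 5 were down-regulated (35.3%, beside 16.6% of all genes), with a median of -0.21. The gene that rose was Mapk3, from 28.1 ± 3.04 to 37.2 ± 3.51 FPKM (limma, adjusted p = 0.0473). Orai1 fell from 60.2 ± 8.17 to 42.6 ± 3.10 FPKM (limma, adjusted p = 0.0232) and Bcl10 from 49.4 ± 1.59 to 31.0 ± 3.83 FPKM (limma, adjusted p = 0.00345), as did Prkcq, Dgka, and Dgkz. Both diacylglycerol kinases limit Ras signalling, so the genes that fell include both activators and inhibitors of the pathway.

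**Figure D4:**
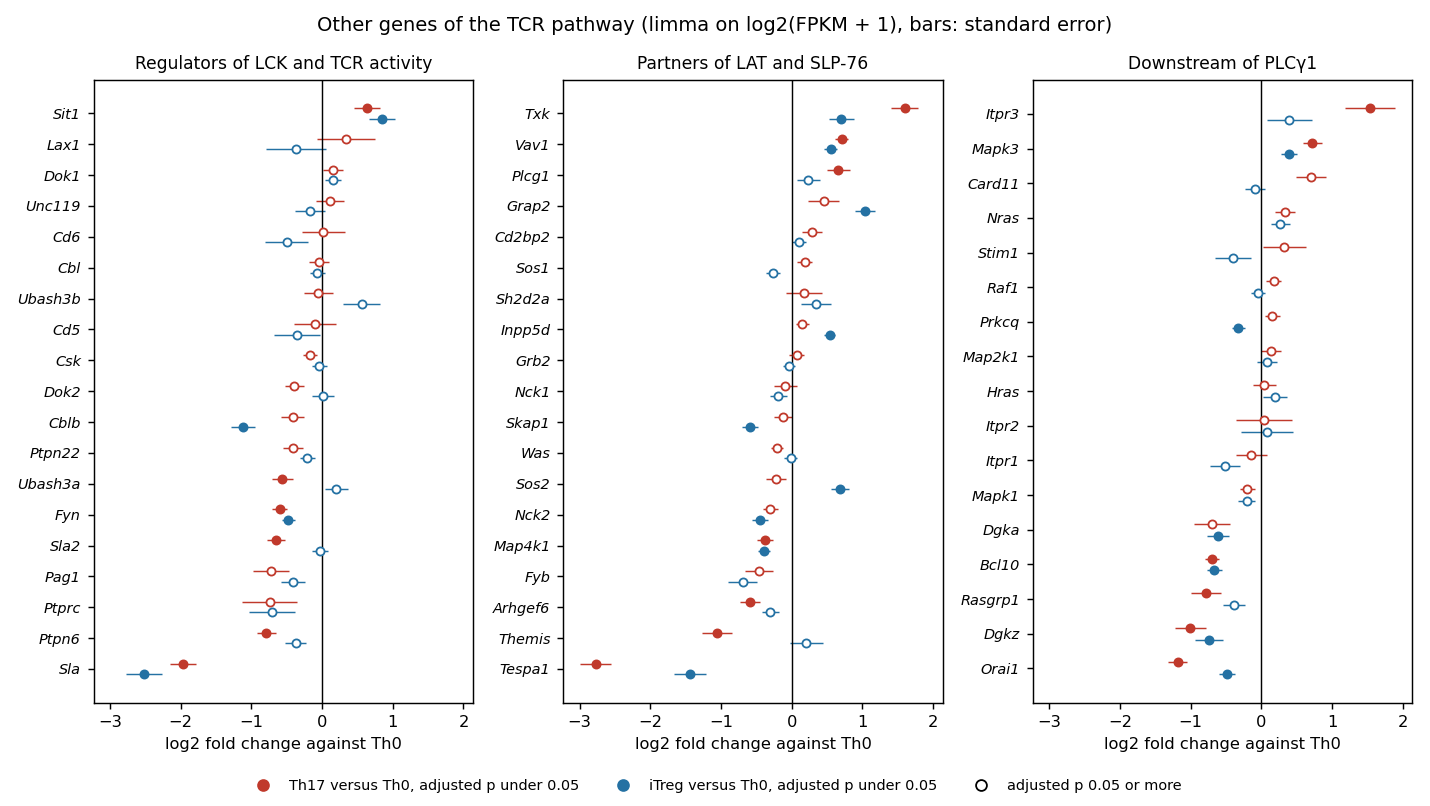
Log2 fold change against Th0 (horizontal axes, log2(FPKM + 1) scale) of 55 other genes of the TCR pathway in 3 lists, for Th17 (red) and iTreg (blue) cells, with bars for the standard error and filled symbols where the adjusted p of limma was under 0.05. Sla and Tespa1 are far to the left in both comparisons, and Txk is to the right in both.

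The patterns of the members over the 12 libraries were compared with each other and with 10078 genes tested in both tables, as Pearson correlations of log2(FPKM + 1) relative to the Th0 mean of the table. These libraries share the groups and the heading beginnings, so the correlations are descriptions. Among members Cd3e and Cd3g were the most alike (r = 0.897), and Cd247 followed both (r = 0.846 with Cd3e and 0.840 with Cd3g). Cd3d and Cd3g, the divergent neighbours, had r = 0.802, Cd3g and Cd4 had r = 0.775, and Lck and Lat had r = 0.727. Lat and Lcp2 had the most negative correlation (r = -0.868). The genes most like each member were Spn for Cd3e (r = 0.949), Gimap1 for Cd3d (0.959), Sepp1 for Cd3g (0.950), Crlf2 for Cd247 (0.972), Cd97 for Cd4 (0.968), Riok3 for Lck (0.934), Sumo3 for Zap70 (0.909), Alg5 for Lat (0.968), and Zfp862-ps for Lcp2 (0.994).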

How the data were processed

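RNA from 12 libraries, 4 each of Th0, Th17, and iTreg cells, was sequenced after 72 h of culture. The authors aligned paired-end reads with TopHat2 2.0.14 to mm10, counted them on exons with HTSeq without strand, left out genes of low CPM, and then deposited 2 tables of FPKM values with the results of their edgeR comparisons (fold changes, p-values, and FDR), which were not used. The FPKM values had been scaled separately for each table, so tests were made within a table. No source used here names the gene annotation behind the counting.

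In each table, log2(FPKM + 1) was analysed by limma 3.58.1 (R 4.3.3, default prior, no trend), keeping genes that exceeded 1 FPKM in 4 or more of its 8 libraries, and p-values were adjusted by Benjamini-Hochberg with a threshold of 0.05. All 9 members passed this filter. For low genes the pseudocount makes fold changes smaller than they are. Single members and ratios were tested with exact two-sided permutation tests over 70 arrangements. Headings of columns show groups but no experiment numbers, so the fit by experiment in the study was not made, and the tests that define DE are unpaired. Pairing by heading beginning was an alternative. The deposited values include no read counts, which leaves counting error unknown, so no intervals are given, and relative depth was read from steps of the low FPKM values. The limma step was tested on simulated data. Tallies and plots used Python 3.11.15 with numpy 2.4.6, pandas 2.3.3, and matplotlib 3.10.9.

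The members and the gene lists were chosen with earlier results of these data known, although the rule for the members uses symbols alone. All 9 members are named, together with the genes of the pathway lists that were DE in either comparison, markers of cell types, neighbours on the chromosome, and the 3 genes most like each member, of which the first is given. Alternatives were the pseudocount, the filter, limma-trend, a robust prior, 2 other scalings, leaving out each library, and, added after the data were seen, the heading beginning as a term. Some genes of the pathway lists are not reported here.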

Additional observations from a re-analysis of the deposited data

Results flagged for a closer look

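Of 27 groups of 4 libraries examined for the 9 members, a single group held a library far from the others, where chance gives about 1 in 20. Zap70 was at 147.9 FPKM in the Th17 library M43, and the nearest of the other 3 Th17 libraries was at 185.9 FPKM. The gap was 0.8298 of the range of the group, just above the critical value of Dixon's test. Lck was also lowest in this library among the Th17 libraries. The cause was not tested.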

How the results depend on the processing

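No paired analysis was possible by the experiment numbers of the labels because the column headings do not carry them. Libraries that share a heading beginning were paired instead, with the beginning as a term that was added after the data were seen, and 5 instead of 3 members were DE in Th17 cells and 7 instead of 1 in iTreg cells, and of the pathway lists 29 instead of 19 genes in Th17 and 35 instead of 19 in iTreg cells. In iTreg cells 2 members were DE with limma-trend, with scaling by median ratio, and with scaling to equal medians, Cd3d being the additional member each time. With scaling to equal medians 4 members were DE in Th17 cells, and Cd3d was again the additional member. Leaving out a library gave 2 to 3 DE members in Th17 and 1 to 2 in iTreg cells, and 11 to 17 DE genes of the pathway lists in iTreg cells. With scaling to equal medians, 4 instead of 2 members had no overlap between Th17 and Th0 cells, where 23.0% of all genes had none under that scaling. Cd247 in Th17 cells turned to -0.032 under that scaling and ranged from -0.25 to 0.33 with a library left out. Of 288 combinations of a member, a comparison, and an alternative, 262 kept direction and side of the threshold, 7 lost the call (all Cd4 in Th17 cells), 14 gained it, and 5 changed sign (all Cd247 in Th17 cells). With 3 libraries in a group fewer libraries enter, and other causes were not tested. Without read counts, how far depth limits the precision of a value is unknown.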
